A study of Mus musculus with 8 samples.

Results

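Gene deserts are long stretches of the genome that hold no protein-coding gene, and open chromatin inside them marks candidate regulatory DNA far from any coding promoter. The regions described here were taken from bulk ATAC-Seq of mouse hepatocytes, an assay in which the Tn5 transposase cuts DNA where nucleosomes leave it accessible. Each of the 8 deposited lists of open intervals was reduced to distinct intervals, the 50000 intervals with the highest −log10 p of the peak caller were kept, and intervals that overlapped by at least 1 bp were merged across libraries into consensus regions. A consensus region was a gene-desert region when it overlapped no gene body of the GENCODE annotation and lay more than 100 kb from the nearest transcription start of a protein-coding gene. This rule, which uses position only, gave 5101 gene-desert regions out of 73725 consensus regions (6.92%).

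All mice were C57BL/6, 10 to 12 weeks old and on a normal diet. Hepatocytes were isolated by collagenase perfusion from healthy, undamaged livers (0 hours) or from livers at 48, 72 or 96 hours after partial hepatectomy (PHx), an operation that resects liver lobes and drives the remaining hepatocytes into the cell cycle. There were 2 libraries at each time point and a sham-operated group was not analysed here. The study's methods list several male mice for hepatocytes at each of the 4 times and call its replicates independent, and its text describes those at 0 and 48 hours as separate hepatocyte preparations. The labels do not tie single libraries to mice, and p-values measure the spread between these libraries. The lists held 105206 to 154577 distinct intervals per library, and the −log10 p at the last interval kept ran from 8.05 to 15.2, so the kept lists reached weaker intervals in some libraries than in others. Read depth is unknown, because the lists hold no counts.

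The open chromatin was compared with cell type markers by counting promoters within 1 kb of an interval. Of 10 hepatocyte genes, 7 and 9 had an open promoter at 0 hours, 3 and 5 at 48 hours, 4 and 4 at 72 hours and 6 and 6 at 96 hours. None of the 5 Kupffer cell and leukocyte genes was open in any library, Kdr, an endothelial receptor, was the single endothelial marker of 5 that was open and only in 1 library at 72 hours, 2 of 5 stellate cell genes were open in all 8 libraries, and 1 to 3 of 5 cholangiocyte genes were open. The part of these differences in the results below was not tested. Of the 8 libraries, 1 stood apart in the share of gene-desert intervals, the second at 96 hours, and results that rest on it are given with its value.

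Distal open regions carry short DNA motifs to which transcription factors bind. In liver, the FOXA and C/EBP families, HNF1 and HNF4 bind distal elements of hepatocyte genes, AP-1 and STAT factors are activated early after PHx, CTCF binds at the anchors of chromatin loops, and the GC box is typical of promoters. Matches were searched on both strands in the 200 bp around the strongest summit of each region, with motifs allowed to overlap and each motif counted once per region. The letters searched were TGANTCA for AP-1, TTGCNNAA for C/EBP, TGTTTAC for FOXA, CAAAGTCCA for HNF4, TTCNNNGAA for STAT, and GGGCGG for the GC box, and the HNF1 motif and the core of the CTCF motif, each of 12 letters, were searched by their consensus. Over all consensus regions, 6.92% held the CTCF core, 7.88% AP-1, 13.2% C/EBP, 4.93% FOXA, 1.36% HNF4, 0.244% HNF1, 5.49% STAT and 16.6% the GC box. A match describes the letters and is no evidence of binding.

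The sequences below are from the mouse reference genome (mm10, plus strand, 5′ to 3′). The first set shows gene-desert regions that were in the kept lists of both libraries at 48 hours and of neither at 0 hours, where both had weaker intervals below the limit, and that held the CTCF core, because of the 8 motifs its share differed most between gained and lost regions. Capitals mark the motif match.
Tmpo region chr10:91297880-91298079: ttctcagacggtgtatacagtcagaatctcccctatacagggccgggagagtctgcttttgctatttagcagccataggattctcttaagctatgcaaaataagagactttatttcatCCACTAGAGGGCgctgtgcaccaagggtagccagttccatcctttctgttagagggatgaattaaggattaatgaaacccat
Gm10184 region chr17:89654465-89654664: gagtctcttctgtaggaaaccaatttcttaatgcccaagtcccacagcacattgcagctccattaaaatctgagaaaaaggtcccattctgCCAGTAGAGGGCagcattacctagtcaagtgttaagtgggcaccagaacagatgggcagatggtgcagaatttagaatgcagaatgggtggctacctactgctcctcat
The next set shows regions in the kept lists of both libraries at 0 hours and of neither at 48 hours, with a match to FOXA (Zfhx3 and Irf2bp2), HNF4 (Nectin1 and Postn) or C/EBP (Kbtbd8) in capitals. All but the Postn region had a weaker interval in both 48-hour libraries, and the Postn region in 1.
Zfhx3 region chr8:108990103-108990302: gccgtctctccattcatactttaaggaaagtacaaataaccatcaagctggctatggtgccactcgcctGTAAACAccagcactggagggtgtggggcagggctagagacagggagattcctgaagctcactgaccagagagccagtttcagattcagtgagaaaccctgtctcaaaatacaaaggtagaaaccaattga
Irf2bp2 region chr8:126728285-126728484: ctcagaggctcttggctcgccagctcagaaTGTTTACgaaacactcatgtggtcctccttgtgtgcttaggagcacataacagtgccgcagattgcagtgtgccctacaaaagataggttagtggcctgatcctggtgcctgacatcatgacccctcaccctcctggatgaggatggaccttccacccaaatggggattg
Nectin1 region chr9:43604643-43604842: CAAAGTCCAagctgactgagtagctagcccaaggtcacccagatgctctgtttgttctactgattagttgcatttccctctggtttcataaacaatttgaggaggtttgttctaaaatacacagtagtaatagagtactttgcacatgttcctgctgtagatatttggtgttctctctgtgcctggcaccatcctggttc
Postn region chr3:54522018-54522217: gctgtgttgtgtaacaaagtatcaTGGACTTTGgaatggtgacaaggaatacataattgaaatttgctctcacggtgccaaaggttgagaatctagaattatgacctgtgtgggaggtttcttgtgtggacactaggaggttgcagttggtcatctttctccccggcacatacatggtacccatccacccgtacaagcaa
Kbtbd8 region chr6:94927837-94928036: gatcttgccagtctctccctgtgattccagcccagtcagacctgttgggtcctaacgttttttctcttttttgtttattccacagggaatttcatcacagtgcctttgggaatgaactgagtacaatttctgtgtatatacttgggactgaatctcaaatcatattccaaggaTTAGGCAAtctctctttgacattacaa
The region below, which lay 234 kb from Cxcr4, was open in all 8 libraries and was among the 5 gene-desert regions with the smallest p at 48 hours. Capitals mark its C/EBP match.
Cxcr4 region chr1:128826524-128826723: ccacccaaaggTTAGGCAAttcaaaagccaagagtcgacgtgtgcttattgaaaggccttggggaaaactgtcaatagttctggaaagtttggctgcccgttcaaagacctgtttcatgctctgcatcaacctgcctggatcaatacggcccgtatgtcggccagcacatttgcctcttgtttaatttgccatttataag
The last set shows 2 of the 3 strongest gene-desert regions of the series. Here capitals mark bases identical to the mouse mitochondrial genome in the best alignment.
G6pd2 region chr5:60042718-60042867: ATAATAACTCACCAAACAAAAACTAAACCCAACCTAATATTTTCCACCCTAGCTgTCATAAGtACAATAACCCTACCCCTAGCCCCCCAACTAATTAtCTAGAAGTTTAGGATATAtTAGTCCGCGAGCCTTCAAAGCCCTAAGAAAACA
Epha5 region chr5:84618317-84618466: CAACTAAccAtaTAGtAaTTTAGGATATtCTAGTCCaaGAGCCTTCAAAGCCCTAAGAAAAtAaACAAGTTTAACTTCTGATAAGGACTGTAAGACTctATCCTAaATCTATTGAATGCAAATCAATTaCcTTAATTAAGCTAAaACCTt

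The gene-desert regions were sparse and lower in GC content than the other classes. Gene deserts by this rule covered 774 Mb, or 29.2% of the genome, and held 6.59 regions per Mb, against 26.6 regions per Mb in the 625 Mb of intergenic sequence nearer to a coding start. The median distance to the nearest coding start was 199 kb, with quartiles at 139 and 335 kb and a largest value of 2207 kb. Just inside the limit lay regions 100013 bp from Rasgrp1, 100014 bp from Shb and 100020 bp from Magi3, and just outside it regions 99984 bp from Sp3 and 99948 bp from Mtss1. The mean GC content of the 200 bp window was 46.5%, against 49.6% in nearer intergenic, 48.8% in intronic and 52.5% in all consensus regions. The median width was 573 bp, against 578 bp in nearer intergenic, 559 bp in intronic and 990 bp in promoter regions.

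Recurrence across libraries was lower than over all regions. Of the gene-desert regions, 1430 (28.0%) were present in the kept lists of all 8 libraries and 1052 (20.6%) in 1 library. The share in all 8 was 32.6% of 16630 regions that were intergenic and nearer to a coding start, 27.7% of 26883 intronic regions, 65.5% of 17575 promoter regions and 38.7% of all regions. When weaker deposited intervals were counted as well, 3444 gene-desert regions (67.5%) had an interval in all 8 lists. Gene-desert regions in 1 library had a median width of 291 bp and a mean GC content of 44.8%, and those in all 8 a median width of 830 bp and a mean GC content of 48.6%. The CTCF core was found in 4.85% of the former and 8.53% of the latter, whereas AP-1 was found in 11.1% and 11.5%.

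**Figure D1:**
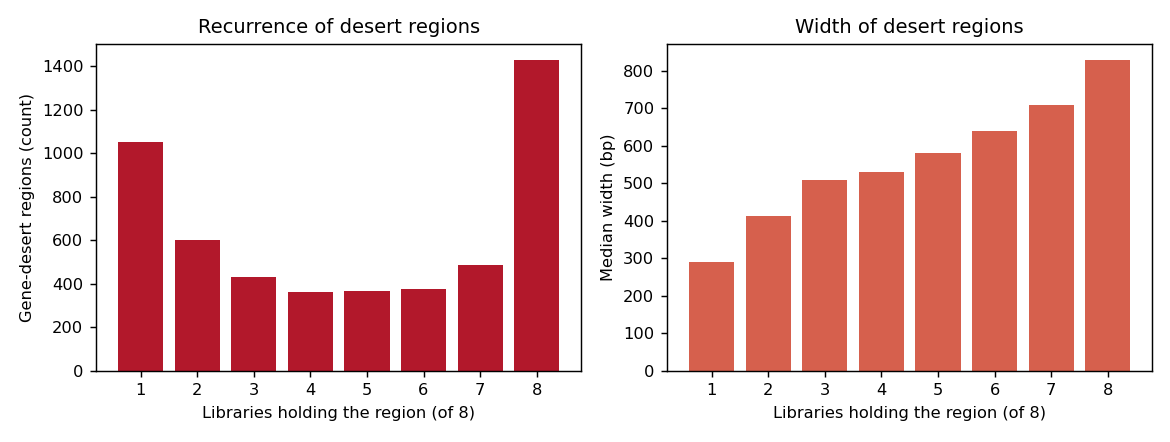
Gene-desert regions by the number of libraries, of 8, whose kept list holds them: the count of regions on the left and their median width in bp on the right. The counts are highest at the ends, with 1052 regions in 1 library and 1430 in all 8, and the median width goes from 291 to 830 bp.

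Gene-desert intervals differed in motif content from other distal intervals. The kept intervals of each library were compared with 2 classes: intergenic intervals 1 to 100 kb from a coding start, and intronic intervals more than 1 kb from any start. Differences were tested by an exact two-sided sign-flip permutation over the 8 libraries, with Benjamini-Hochberg adjustment over 24 tests. The smallest p that this test can give is 0.00781, or 0.00937 after adjustment here. Since the libraries share most of their regions, the test covers the spread between libraries only. The 8 motifs were chosen after the shares of 19 motifs had been seen by region class in these data. The adjustment does not cover that choice, so the p-values of the motif shares are no independent support.

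C/EBP, the motif of a family that includes the hepatocyte factors Cebpa and Cebpb, was found in 19.4% ± 1.04 (SD, n = 8 libraries) of gene-desert intervals, 14.1% ± 0.700 of nearer intergenic intervals and 15.6% ± 0.900 of intronic intervals. By library the gene-desert share was 19.1% and 21.2% at 0 hours, 18.6% and 18.4% at 48 hours, 19.3% and 18.5% at 72 hours and 19.1% and 20.7% at 96 hours. The gene-desert share was higher in 8 of 8 libraries against both classes (exact permutation, adjusted p = 0.00937 for each). FOXA was found in 7.32% ± 0.411, against 5.06% ± 0.171 in nearer intergenic and 6.25% ± 0.321 in intronic intervals, and it too was higher in 8 of 8 libraries against both (exact permutation, adjusted p = 0.00937). AP-1 and STAT matches, the motifs of factors induced early after PHx, were likewise more frequent in gene deserts than in both other classes. AP-1 was found in 10.5% ± 0.624 of gene-desert, 8.96% ± 0.497 of nearer intergenic and 9.46% ± 0.637 of intronic intervals, and STAT in 7.06% ± 0.515, 6.06% ± 0.218 and 5.70% ± 0.260, each higher in gene deserts in 8 of 8 libraries (exact permutation, adjusted p = 0.00937).

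The CTCF core and the GC box were less frequent than in nearer intergenic intervals. CTCF was found in 7.81% ± 0.619 of gene-desert intervals against 12.3% ± 0.623, lower in 8 of 8 libraries, with differences of −4.82 to −3.99 percentage points (exact permutation, adjusted p = 0.00937). By library the CTCF share of gene-desert intervals was 6.95% and 7.13% at 0 hours, 7.85% and 8.95% at 48 hours, 8.01% and 8.04% at 72 hours and 7.56% and 7.97% at 96 hours. Against intronic intervals, which held it in 7.51% ± 0.521, the difference was small. It was 0.30 percentage points (exact permutation, adjusted p = 0.0489), and it was no longer below 0.05 when any one of 7 libraries was left out. The GC box was found in 4.30% ± 0.220, against 8.52% ± 0.293 and 5.49% ± 0.120 (exact permutation, adjusted p = 0.00937 for each).

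HNF4 and HNF1 matches were few. HNF4 was found in 1.75% ± 0.289 of gene-desert intervals against 1.64% ± 0.185 of nearer intergenic ones, with an adjusted p of 0.0938 (exact permutation), and 1.59% ± 0.190 of intronic ones, with an adjusted p of 0.0489 (exact permutation) that was no longer below 0.05 when any one of 6 libraries was left out. HNF1 was found in 0.462% ± 0.0637, against 0.254% ± 0.0294 and 0.319% ± 0.0346 (exact permutation, adjusted p = 0.00937 for each).

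GC content moved with these motif shares. It was 47.4% ± 0.455 in gene-desert, 50.4% ± 0.263 in nearer intergenic and 49.5% ± 0.291 in intronic intervals. When the other class was reweighted to the GC content of the gene-desert intervals over 5 strata, an alternative chosen after the data were seen, the differences from nearer intergenic intervals were 3.46 percentage points for C/EBP, 1.65 for FOXA, 1.16 for AP-1, 0.554 for STAT, −3.91 for CTCF and −1.67 for the GC box, each with the same sign in 8 of 8 libraries. The STAT difference thus fell from 1.0 and was 0.0308 in the lowest library, and the HNF4 difference fell to 0.0142 (higher in 4 of 8). With the same reweighting the GC box no longer differed in sign in all libraries from intronic intervals (0.0655 percentage points, higher in 6 of 8), and the FOXA difference from intronic intervals was 0.467 (higher in 7 of 8). The HNF1 difference fell to 0.103 percentage points from nearer intergenic intervals (higher in 7 of 8; unadjusted exact permutation p = 0.0234) and to 0.0391 from intronic intervals (6 of 8; p = 0.195), and the HNF4 difference from intronic intervals was 0.111 (6 of 8; p = 0.164). The CTCF difference from intronic intervals was 0.654 (higher in 8 of 8; exact permutation p = 0.00781).

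Gene-desert intervals also differed in strength. The median fold enrichment of the kept intervals over local background was 8.72 ± 1.14 in gene deserts, 8.28 ± 0.961 in nearer intergenic and 7.73 ± 0.889 in intronic sequence, higher in gene deserts in 8 of 8 libraries against both (exact permutation, adjusted p = 0.00937). With all deposited intervals the difference from nearer intergenic intervals turned to −0.23, so this order holds for the strongest intervals and not for the whole lists. The median width was 464 ± 49.9 bp, against 441 ± 41.5 and 447 ± 42.5 bp (exact permutation, adjusted p = 0.00937 and 0.0179), and this order too turned with all deposited intervals. Repeat-masked bases made up 9.61% ± 0.510 of the windows, against 10.6% ± 0.292 and 10.3% ± 0.336 (exact permutation, adjusted p = 0.00937 for each). This call was lost against both classes with 25000 intervals (adjusted p = 0.228 and 0.445), q under 0.05 (0.0511 and 0.179) and all deposited intervals (0.334 and 0.930; all exact permutation).

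**Figure D2:**
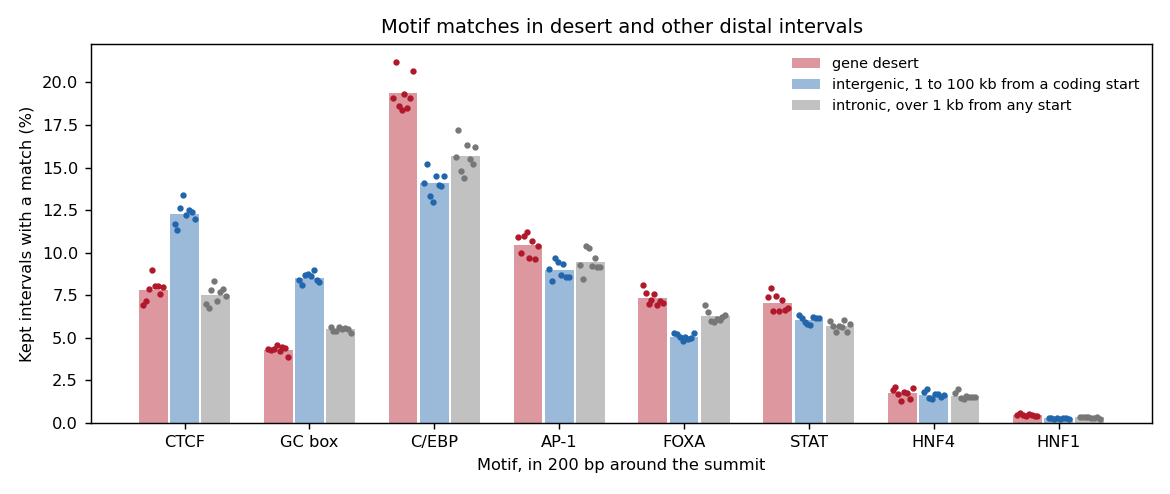
Share of kept intervals with a motif match in the 200 bp around the summit (%), by motif, for gene-desert, nearer intergenic and intronic intervals. Bars are means over 8 libraries and points are libraries: C/EBP averages 19.4% in gene deserts against 14.1% and 15.6%, and CTCF 7.81% against 12.3% and 7.51%.

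The motif shares varied with depth inside the desert. Among the 2569 regions 100 to 200 kb from a coding start, 17.8% held C/EBP and 8.14% the CTCF core, whereas among the 145 regions more than 1000 kb away these shares were 24.1% and 4.83%. The 1892 regions at 200 to 500 kb and the 495 at 500 to 1000 kb lay between, with 20.4% and 22.2% for C/EBP and 6.66% and 5.66% for CTCF. GC content went from 47.7% to 42.0% over the same 4 bins, and the share present in all 8 libraries from 30.4% to 19.3%. These are descriptions without a test, and base composition moved with distance.

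**Figure D3:**
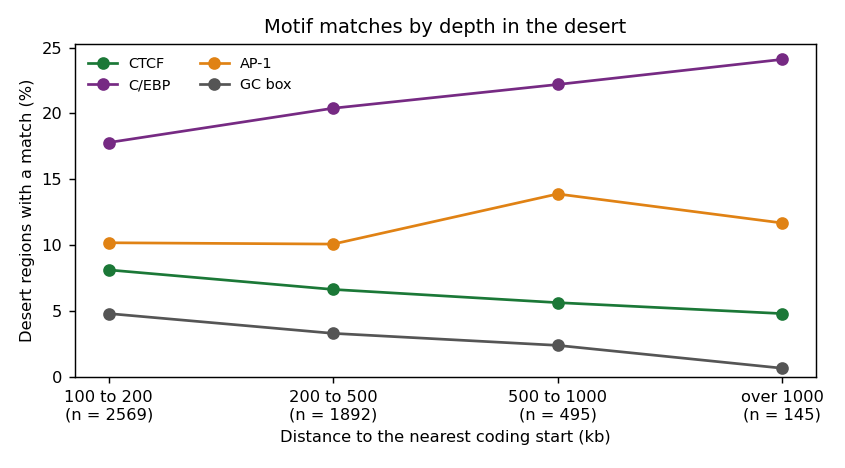
Share of gene-desert regions with a match to CTCF, C/EBP, AP-1 or the GC box (%), in 4 bins of distance to the nearest coding start (kb), with the number of regions under each bin. C/EBP goes from 17.8% to 24.1% and CTCF from 8.14% to 4.83%, and the farthest bin holds 145 regions.

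The gene-desert share of the kept intervals was lowest at 48 hours, and its test across time turned on the 96-hour libraries. Gene-desert intervals made up 6.16% and 6.09% of the 50000 kept intervals at 0 hours, 5.84% and 5.75% at 48 hours, 5.97% and 5.99% at 72 hours and 5.90% and 6.85% at 96 hours. Both 48-hour libraries lay below all others, and the second 96-hour library lay above all others. The intronic share was also lowest at 48 hours (31.3% and 31.4% against 31.7% to 32.3%), whereas the nearer intergenic share overlapped between times (21.3% and 21.6% against 21.1% to 21.7%). The exact permutation of the between-time F over all 105 pairings gave p = 0.448, adjusted p = 0.547 over 11 measures. Without the first 96-hour library the unadjusted p was 0.00952, the smallest that 105 arrangements allow, and without the second it was 0.019 (exact permutation), with adjusted p of 0.105 and 0.21. None of the 11 measures, which included GC content, width and the 8 motif shares, had an adjusted p under 0.511 (exact permutation, where 105 pairings allow no unadjusted p under 0.00952, so that 1 measure alone at this floor adjusts to 0.105). The CTCF share of gene-desert intervals was lower in both 0-hour libraries (6.95% and 7.13%) than in the 6 libraries after PHx (7.56% to 8.95%), with an unadjusted p of 0.0952, and the FOXA share was higher in both 0-hour libraries (8.12% and 7.62%) than in the others (6.94% to 7.54%), with an unadjusted p of 0.210 (both exact permutation). The like classes had the same order for CTCF, with 11.7% and 11.3% at 0 hours against 12.0% to 13.4% in nearer intergenic intervals and 6.99% and 6.76% against 7.18% to 8.34% in intronic ones. Intronic FOXA was also highest at 0 hours (6.90% and 6.49% against 5.94% to 6.33%), whereas nearer intergenic FOXA overlapped (5.28% and 5.20% against 4.79% to 5.26%).

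Changes of single regions were tested on the fold enrichment at the strongest summit, which the lists give for each interval. Of the 5101 gene-desert regions, 3444 had an interval in all 8 lists and were tested, with limma on quantile-normalized log2 fold enrichment and adjustment over all 55124 regions tested in the series. At an adjusted p under 0.05, limma called no gene-desert region at 48, 72 or 96 hours, and none of the 55124 (0%). The study, with its own time-course test and limits, does report regions of changed accessibility after PHx. The 0 calls therefore hold for fold enrichment from these lists, with 2 libraries at each time, and not for accessibility in general. At 48 hours, 484 gene-desert regions (14.1%) had an unadjusted p under 0.05, against 10.3% of all regions tested. Of these, 165 were higher (4.79%, all regions 5.01%) and 319 lower (9.26%, all regions 5.26%). At 72 hours 168 were higher (4.88%, all regions 3.8%) and 145 lower (4.21%, all regions 2.57%), or 9.09% together against 6.37%. At 96 hours 157 were higher (4.56%, all regions 3.1%) and 128 lower (3.72%, all regions 2.63%), or 8.28% together against 5.73%. Leaving out the first 48-hour library gave 2 calls at 48 hours (7 of all 57282 regions tested) and leaving out the second gave 1 (4 of 56186), all lower, and leaving out the first 0-hour library gave 2 calls at 72 hours (6 of 55167), both higher. In these fits the lone library is assumed to vary like the other groups. With intervals of 200 bp around each summit, 1 gene-desert region was called at 48 hours, of 3 among all 62739 tested. With −log10 p in place of fold enrichment limma called 0 gene-desert regions and 21, 2 and 1 of all 55124 at 48, 72 and 96 hours.

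The median change leaned downward at 48 hours. The median log2 change from 0 hours over the 3444 regions was −0.0764 at 48 hours, against 0.00112 over all regions tested, and −0.0259 and −0.0150 at 72 and 96 hours. The median normalized log2 fold enrichment of these regions was 3.01 and 2.97 at 0 hours, 2.90 and 2.92 at 48 hours, 2.98 and 2.97 at 72 hours and 2.98 and 3.02 at 96 hours. Both 48-hour libraries were below all 6 others, and the groups at the other times overlapped. In the exact permutation over 105 pairings, which was added after the data were seen, p was 0.0952. In nearer intergenic regions the same medians ran from 2.88 to 2.94 and in intronic regions from 2.77 to 2.81, with p = 0.895 and p = 0.181 (exact permutation). The kept lists reached the weakest intervals in both 48-hour libraries and the second 96-hour library (−log10 p at the limit of 8.05, 8.62 and 8.29), and the part of this in the 48-hour values was not tested.

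**Figure D4:**
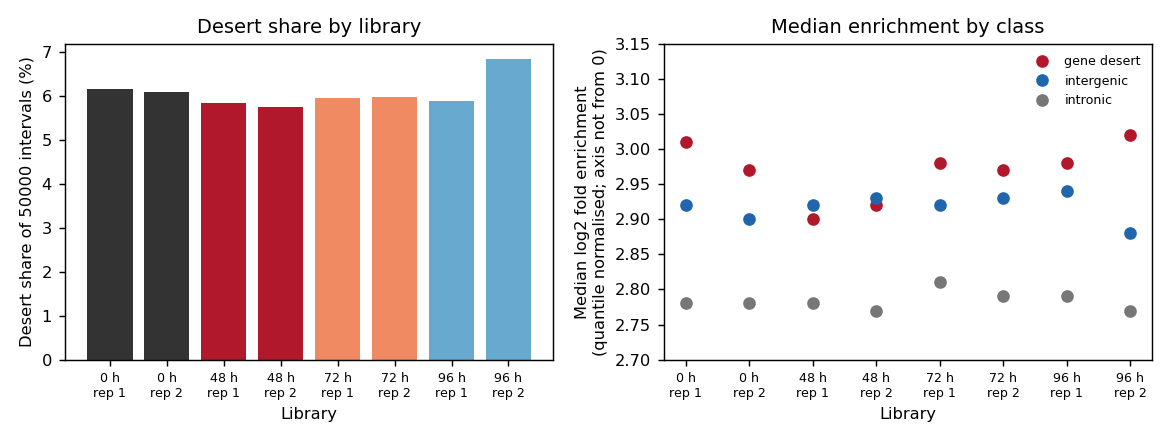
Left, gene-desert share of the 50000 kept intervals (%) in each library; right, median quantile-normalized log2 fold enrichment of tested regions by class and library, on an axis that does not start at 0. The 48-hour libraries have the lowest gene-desert shares (5.84% and 5.75%) and gene-desert medians (2.90 and 2.92), and the second 96-hour library the highest share (6.85%).

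Fold enrichment before normalization was lower throughout in both 48-hour libraries. Its median over the kept intervals was 6.75 and 7.45 at 48 hours against 8.18 to 9.92 in the other 6 libraries in gene deserts, 6.68 and 7.16 against 7.77 to 9.26 in nearer intergenic and 6.21 and 6.71 against 7.27 to 8.58 in intronic sequence. The fold enrichments of single regions below are not normalized and carry this shift, whereas their log2 changes are from normalized values.

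Of the 5 gene-desert regions with the smallest limma p at 48 hours, 4 are described here, and in each the 48-hour values were lower than those at 0 hours without passing adjustment. The region at chr1:128826090-128827291, 234 kb from Cxcr4, a chemokine receptor gene, had fold enrichments of 17.3 and 17.0 at 0 hours, 5.52 and 5.68 at 48 hours, 14.2 and 13.0 at 72 hours and 10.9 and 14.6 at 96 hours. The 48-hour libraries lay below all others, and the log2 change was −1.21 ± 0.23 (SE; limma, adjusted p = 0.181).

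In the other 3, later values were again nearer to those at 0 hours. The region at chr13:39702547-39703114 near Ofcc1 had 15.4 and 20.7 at 0 hours, 6.40 and 3.35 at 48 hours and 11.7 to 16 at 72 and 96 hours. The region at chr6:59713053-59713384 near Gprin3 had 17.6 and 24.2 at 0 hours, 6.04 and 8.20 at 48 hours and 12.3 to 15.9 later, and the one at chr1:145972267-145972968 near Brinp3 had 12.0 and 17.7, then 3.55 and 5.59, then 11.1 to 12.7. Their normalized log2 changes at 48 hours were −1.56 ± 0.29, −1.17 ± 0.23 and −1.34 ± 0.28 (limma, adjusted p = 0.181, 0.196 and 0.206). In all 4 regions both 48-hour values were below those of the other 6 libraries, and so were their percentiles of −log10 p within each library's list.

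Presence and absence in the kept lists gave a second view of change. A region was counted as gained when it was present in both libraries of a time and in neither 0-hour library, and as lost in the reverse case. At 48 hours, 131 gene-desert regions (2.57%) were gained and 228 (4.47%) lost, against 2.66% and 3.50% of all consensus regions. At 72 hours 155 (3.04%) were gained and 161 (3.16%) lost, against 2.88% and 2.73%, and at 96 hours 142 (2.78%) and 116 (2.27%), against 2.22% and 2.41%. The shares lay near the background, and the share lost at 48 hours and gained at 96 hours lay furthest above it. In these, other distal classes were close: 4.23% of intronic and 3.61% of nearer intergenic regions were lost at 48 hours, and 2.47% and 2.65% were gained at 96 hours. With 2 libraries against 2 there was no test, and the 3 comparisons share the 0-hour libraries.

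These counts depended on the limits of the lists. At 48 hours, 2 gained and 6 lost regions had no interval at all in the full lists of the other time, and 2 and 2 at 72 hours and 1 and 2 at 96 hours. With 1 library left out, the 48-hour counts were 322 gained and 572 lost (first 0-hour library), 228 and 466 (second 0-hour library), 384 and 449 (first 48-hour library) and 431 and 456 (second 48-hour library). At 72 hours they were 388 and 501, 251 and 388 (0-hour libraries), 428 and 359, and 370 and 324 (72-hour libraries). At 96 hours they were 373 and 424, 244 and 296 (0-hour libraries), 663 and 289, and 362 and 342 (96-hour libraries). The share of all regions rose with these counts. Over the 4 libraries of each comparison, the gained shares were 4.60% to 8.61% of gene-desert and 4.68% to 8.16% of all regions at 48 hours, 5.06% to 8.51% and 5.03% to 7.87% at 72 hours, and 4.92% to 13.2% and 4.18% to 7.88% at 96 hours. The lost shares were 9.03% to 11.4% and 6.79% to 8.90%, 6.48% to 9.96% and 5.63% to 8.14%, and 5.76% to 8.43% and 5.44% to 7.48%. The highest count, 663 or 13.2% of gene-desert regions against 7.88% of all, was that of gains judged on the second 96-hour library alone. The share lost at 48 hours was above that of all regions in 8 of 8 leave-one-out counts and in 5 of 8 other alternatives. It was below with all deposited intervals (1.33% against 1.70%), with q under 0.05 (2.01% against 2.19%) and with absence from the full lists (0.118% against 0.129%). The share gained at 96 hours was likewise above in 8 of 8 leave-one-out counts and 5 of 8 other alternatives, and below in the same 3, at 1.31% against 1.56%, 1.53% against 1.57% and 0.0196% against 0.0285%.

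In counts without a test, the CTCF core was more frequent among regions gained at 48 hours, and FOXA, C/EBP and HNF4 among those lost. The CTCF core was found in 20 of 131 gained regions (15.3%) and 4 of 228 lost regions (1.75%), against 7.25% of all gene-desert regions. FOXA was found in 5 gained (3.82%) and 24 lost regions (10.5%), against 6.96%, and C/EBP in 17 gained (13.0%) and 49 lost (21.5%), against 19.4%. HNF4 was found in 0 of 131 gained regions and in 8 lost regions (3.51%), against 1.92% of all gene-desert regions. The 0 allows a share of up to 2.29%, taken as 3 of 131 with regions counted as independent. That limit lies above the 1.92%, so the 0 does not set the gained regions apart. The CTCF shares were 10.3% gained and 2.48% lost at 72 hours, and 10.6% and 4.31% at 96 hours, times that share the 0-hour libraries. GC content moved with this split, at 47.0% in gained and 44.3% in lost regions at 48 hours.

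The order of the CTCF shares held for the strongest intervals and turned when weak ones were added. The gained share stayed above the lost share with each library left out, at 11.7% against 3.12% without the first 48-hour library and 9.05% against 4.17% without the second. With all deposited intervals it turned, to 1.58% against 2.97%, and with all intervals at a q under 0.05 to 2.47% against 3.22%. The FOXA share stayed lower in gained regions in every alternative run. It was 4.35% against 7.34% without the first 0-hour library, and 5.47% against 8.46% and 4.64% against 8.11% without the first and second 48-hour library. The HNF4 shares were 0.877% against 2.79% without the second 0-hour library and 1.86% against 2.63% without the second 48-hour library.

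The regions printed above show the values behind these counts. The CTCF-bearing region 126 kb from Tmpo, a nuclear lamina gene, had fold enrichments of 5.41 and 5.49 at 0 hours, 8.17 and 6.71 at 48 hours, 5.72 and 5.72 at 72 hours and 7.32 and 8.18 at 96 hours. It thus had intervals below the limit at 0 hours, and the 48-hour values were higher. The FOXA-bearing region 275 kb from Zfhx3, a homeobox gene, had 8.49 and 8.92 at 0 hours, 2.27 and 3.28 at 48 hours, and 4.99 to 6.28 later. The HNF4-bearing region 139 kb from Nectin1, a cell adhesion gene, had 8.21 and 8.71 at 0 hours, 3.93 and 3.91 at 48 hours, and 4.75 to 5.61 later. In both, all libraries after PHx were below both 0-hour libraries. The other FOXA-bearing region, 134 kb from Irf2bp2, had 8.99 and 10.2 at 0 hours, 4.52 and 4.89 at 48 hours, 9.03 and 8.41 at 72 hours and 9.38 and 4.09 at 96 hours, so that 3 of the 4 later values were near those at 0 hours. The HNF4-bearing region 161 kb from Postn was listed in the 0-hour libraries at 7.74 and 9.02, in the first 48-hour library at 4.77 and in none of the other 5.

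None of the strongest regions gained or lost at 48 hours passed adjustment. The region at chr12:39334183-39334615, 551 kb from Etv1, an ETS transcription factor gene, had 6.83 and 4.22 at 0 hours, 9.59 and 8.57 at 48 hours, 10.3 and 9.64 at 72 hours and 7.64 and 6.13 at 96 hours (log2 change at 48 hours 1.13 ± 0.29; limma, adjusted p = 0.247). Its values at 48 and 72 hours were above both 0-hour values. The region at chr11:64186302-64186925 near Cox10, a cytochrome oxidase assembly gene, had 4.65 and 4.01 at 0 hours and 6.79 and 6.67 at 48 hours (limma, adjusted p = 0.301). Another, at chr8:100850935-100851499 between Cdh8 and Cdh11, had no interval in the second 0-hour library and could not be fitted; it had 6.11 in the first, 8.17 and 8.70 at 48 hours and 7.01 to 12.8 later.

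Of the lost regions, the one at chr8:115831513-115832250, 124 kb from Maf, a bZIP transcription factor gene, had 10.4 and 11 at 0 hours, 4.05 and 3.22 at 48 hours, 10.1 and 9.21 at 72 hours and 8.57 and 8.03 at 96 hours. The 48-hour libraries stood apart from the other 6 (log2 change −1.23 ± 0.29; limma, adjusted p = 0.213). The region at chr3:112121632-112121984, 1137 kb from Amy2a5, an amylase gene, had 12.2 and 15.7 at 0 hours, 4.26 and 3.35 at 48 hours and 4.52 to 8.01 later (log2 change −1.51 ± 0.33; limma, adjusted p = 0.206). The C/EBP-bearing region 189 kb from Kbtbd8, a ubiquitin ligase adaptor gene, had 12.9 and 12.7 at 0 hours, 3.91 and 4.47 at 48 hours, 11.2 and 7.23 at 72 hours and 9.23 and 8.59 at 96 hours (log2 change −1.25 ± 0.28; limma, adjusted p = 0.207).

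None of the strongest regions gained or lost at 72 and 96 hours passed adjustment. The region at chr4:105402961-105403729, 246 kb from Plpp3, a lipid phosphatase gene, had 5.69 and 2.96 at 0 hours and 12.6 and 11.3 at 72 hours (log2 change 1.57 ± 0.32; limma, adjusted p = 0.409). The region at chr15:65637412-65638026 near Efr3a had 6.55 and 5.49 at 0 hours, 18 and 10.5 at 72 hours and 11.1 and 16.8 at 96 hours, and that at chr10:42987550-42988158 near Scml4, a polycomb-group gene, 6.32 and 5.07 at 0 hours and 11.4 and 10.8 at 72 hours. Lost at 72 hours were regions near Pou3f3, a neural transcription factor gene (13.7 and 13.7 at 0 hours, 6.01 and 5.12 at 72 hours, 11.1 and 12.6 at 96 hours), Mecom (8.53 and 9.72, then 5.12 and 6.14) and Fgf9, a growth factor gene (12.5 and 11.8, then 5.72 and 6.02). The Fgf9 region had no interval in the first 48-hour library and could not be fitted.

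Among those lost at 96 hours was a region at chr10:122308740-122309343, 139 kb from Avpr1a, the vasopressin receptor gene of hepatocytes, with 1 AP-1 and 1 STAT match. It had 12.8 and 12.2 at 0 hours, 6.40 and 7.08 at 48 hours, 6.01 and 8.43 at 72 hours and 6.05 and 3.68 at 96 hours, so that all 6 libraries after PHx were below both at 0 hours (log2 change at 96 hours −1.28 ± 0.30; limma, adjusted p = 0.566). Regions near Hs6st1 and Mdfic went from 9.71 and 11.2 to 4.45 and 4.15 and from 12.8 and 12.2 to 5.73 and 4.91. The regions gained at 96 hours lay near Dusp10, a MAP kinase phosphatase gene (5.98 and 5.49 at 0 hours, 14.2 and 11.4 at 96 hours), Kcnj3, a potassium channel gene (6.26 and 4.64, then 11.1 and 11.3), and Dtwd2 (5.69 and 5.49, then 12.1 and 11.4). The adjusted p values of those fitted were 0.566 to 0.754 (limma).

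Of the 5 strongest gene-desert regions, 3 were similar to mitochondrial DNA. By mean rank over the 8 libraries, the strongest region lay on chromosome 18 at 131 kb from Bambi, with fold enrichments of 44.0 to 51.5. The next were chr5:60042647-60043169, 1766 kb from G6pd2, at 23.7 to 28.3, and chr5:84618264-84618592, 201 kb from Epha5, at 30.0 to 36.3. The log2 changes of these 3 from 0 hours were between −0.05 and 0.24, with adjusted p values of 0.527 to 0.997 (limma). All 3 aligned to the mitochondrial genome, at 88.9% identity over 279 bp, 97.9% over 383 bp and 84.4% over 269 bp. Copies of mitochondrial DNA in the nuclear genome share sequence with the mitochondria, so reads from either can be placed at such a copy, and the values of these regions are uncertain.

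In all, 11 of 5101 gene-desert regions (0.216%) aligned to the mitochondrial genome at 80% identity or more over at least 50 bp, against 50 of 73725 regions (0.0678%), 8 of 16630 nearer intergenic regions (0.0481%) and 7 of 26883 intronic regions (0.0260%). Of the 11, 8 were present in all 8 libraries. They included regions near Nxph1 (95.5% identity, fold enrichments of 17.1 to 25.8) and Galc (99.7% identity, 20.1 to 25.9). The search was added after the strongest regions had been seen. The other 2 of the 5 strongest had no such match and were rich in G+C. They lay at chr4:54587083-54588077, 360 kb from Zfp462, a zinc finger gene, with a GC content of 58.5% and fold enrichments of 17.6 to 27.9, and at chr12:29290657-29291446, 237 kb from Myt1l, a neural zinc finger gene, with 59.0% and 18 to 25.3.

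Of the 145 regions more than 1000 kb from a coding start, 28 were present in all 8 libraries, and the 5 farthest regions were named from those present in all 8. The farthest of these lay 2034 kb from Cdh20, at chr1:102733971-102734443, with fold enrichments of 7.53 to 14.8. Others lay on chromosome 18 at 1992 kb from Pik3c3 (11.3 to 22.3), at chr17:61058362-61058907, 1822 kb from Efna5 (5.33 to 16.6), and at chr8:7060039-7060984, 1600 kb from Efnb2 (6.96 to 19.3), besides the mitochondrial-like region near G6pd2. In the regions near Pik3c3, Efna5 and Efnb2, the 48-hour values of 11.8 and 11.3, of 5.33 and 5.59 and of 6.96 and 7.83 were the lowest of the 8 libraries before normalization. By percentile of −log10 p within each library this held near Efna5 and Efnb2, whereas near Pik3c3 the first 48-hour library (93.2) lay above the second 72-hour library (92.5). Their normalized log2 changes were −0.52 ± 0.18, −0.99 ± 0.34 and −0.71 ± 0.25 (limma, adjusted p = 0.341, 0.341 and 0.352). In the other 2 the normalized log2 change was above 0: near Cdh20 the 48-hour values were 7.82 and 11.2 (log2 change 0.02 ± 0.26; limma, adjusted p = 0.988), and near G6pd2 24.9 and 23.7 (0.22 ± 0.11; limma, adjusted p = 0.527).

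The gene-desert regions were spread over many stretches between neighboring coding genes. They fell in 1166 stretches, with a median of 3 regions per stretch, and 319 stretches held 1. The 13 stretches with 20 or more held 337 regions (6.61%). The fullest was the 2.45 Mb between the adhesion receptor genes Adgrl2 and Adgrl4, with 32 regions, 10 of them in all 8 libraries. The 0.955 Mb between the cadherin genes Cdh26 and Cdh4 held 31, of which 19 were in all 8 libraries. None of the 31 was gained or lost at 48 hours, where 2.66% of all consensus regions were gained and 3.50% lost. With so few regions this count is not read against those shares. The 0.797 Mb between Maf and Dynlrb2 also held 31 (10 in all 8), that between Camk1g and Plxna2 29 (7) and that between Sall1 and Tox3 28 (11).

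Some of these stretches flank genes of hepatocyte transcription factors. The 0.650 Mb between Pax1 and Foxa2, the gene of a pioneer factor of the liver, held 25 regions, 9 of them in all 8 libraries. By library 19 and 20 were present at 0 hours, 20 and 16 at 48 hours, 18 and 19 at 72 hours and 20 and 19 at 96 hours, so the time points overlapped. The 0.579 Mb between Wdr72 and Onecut1, the gene of the liver factor HNF6, held 27, of which 5 were in all 8 libraries. By library 16 and 12 of the 27 were present at 0 hours, 13 and 12 at 48 hours, 12 and 15 at 72 hours and 11 and 12 at 96 hours. At 48 hours 2 of the 27 were gained and 3 lost. Of all consensus regions 2.66% were gained and 3.50% lost, and counts this small are not read against these shares.

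**Figure D5:**
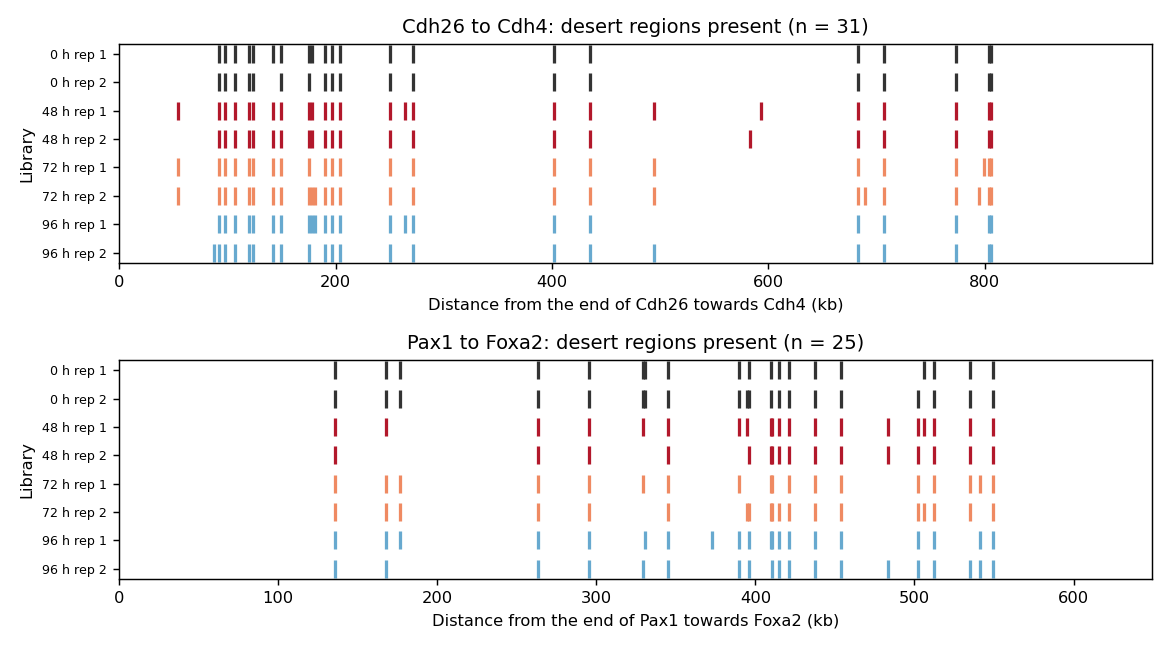
Gene-desert regions present in each library along the stretches from Cdh26 to Cdh4 (31 regions) and from Pax1 to Foxa2 (25 regions), by distance from the end of the left gene (kb). Each tick is 1 region: 19 and 9 of them run through all 8 libraries, and the regions near both genes fall outside the gene-desert rule.

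The genes nearest to gene-desert regions numbered 1555. By lists built on gene symbols, 154 regions (3.02%) had a developmental regulator as the nearest coding gene, against 1.58% of all consensus regions, and 240 (4.70%) an adhesion or synapse gene, against 1.52%. For 26 hepatocyte factors the shares were 1.20% and 0.553%, and for 42 genes of growth control in regeneration 1.22% and 0.506%. Metabolic genes were the nearest in 0.804% against 1.84%, and chemoreceptors in 0.176% against 0.326%. These are counts without a test, in which genes with long intergenic flanks are counted more often.

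Among hepatocyte factors, Foxa2 had 20 such regions (6 in all 8 libraries), Onecut1 16 (2), Nr5a2, a nuclear receptor of bile acid control, 14 (5), Prox1 5 (2), Cebpb 3 and Nfib 3. The 61 regions of this list held 4 gained and 5 lost at 48 hours, 5 and 2 at 72 hours and 5 and 3 at 96 hours. Over all gene-desert regions 2.57% were gained and 4.47% lost at 48 hours, 3.04% and 3.16% at 72 hours and 2.78% and 2.27% at 96 hours, against 2.66% and 3.50%, 2.88% and 2.73%, and 2.22% and 2.41% of all regions, and counts this small are not read against them. The Cebpb regions, 110 to 120 kb from the gene of an acute-phase C/EBP factor, were found as 3 and 2 at 0 hours, 0 and 1 at 48 hours, 3 and 2 at 72 hours and 1 and 1 at 96 hours, and those of Prox1, a homeobox factor of hepatocytes, numbered 2 and 2, 3 and 2, 4 and 4, and 5 and 4.

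Among the genes of growth control, Inhba, which encodes the activin A subunit, had 17 regions 248 to 757 kb away, of which 13 and 14 were present at 0 hours, 11 and 10 at 48 hours, 12 and 11 at 72 hours and 11 and 11 at 96 hours. The 0-hour libraries were above the other 6. Over all gene-desert regions, 3044 and 3002 were present at 0 hours, 2841 and 2817 at 48 hours, 2953 and 2972 at 72 hours and 2916 and 3372 at 96 hours. There, only the second 96-hour library was not below both 0-hour libraries. Tgfb2, a TGF-β ligand gene, had 7 regions, of which 1 and 2 were present at 0 hours, 2 and 2 at 48 hours, 3 and 4 at 72 hours and 4 and 4 at 96 hours. Myc had 6, at 405 to 815 kb, of which 3 to 5 were present per library, and Ccnd1, the cyclin D1 gene, 3, of which 2 or 3 were present. Igf1 had 7 regions, of which 3 to 5 were present per library, Tgfbr2 7 (1 to 5), Mycn 6 (3 to 5) and Jun 5 (2 or 3). Over the 62 regions of the list, 1 was gained and 3 were lost at 48 hours, 2 and 0 at 72 hours and 1 and 0 at 96 hours, where the shares of all regions were 2.66% and 3.50%, 2.88% and 2.73%, and 2.22% and 2.41%.

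Among developmental regulators, Sox9, a biliary and progenitor factor, had 15 regions, of which 11 and 9 were present at 0 hours, 6 and 9 at 48 hours, 12 and 10 at 72 hours and 13 and 11 at 96 hours. Gata6 had 12, with 8 and 8 at 0 hours, 7 and 8 at 48 hours, 12 and 10 at 72 hours and 10 and 6 at 96 hours. Gata3 had 9 regions 257 to 1239 kb away, none in all 8 libraries, of which 2 and 2 were present at 0 hours, 6 and 5 at 48 hours, 2 and 3 at 72 hours and 2 and 4 at 96 hours, and it was singled out after these values were seen. Over the list of 154 regions, 5 were gained and 5 lost at 48 hours (all regions 2.66% and 3.50%), 6 and 2 at 72 hours (2.88% and 2.73%) and 2 and 0 at 96 hours (2.22% and 2.41%).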

How the data were processed

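Bulk ATAC-Seq libraries of hepatocytes, 2 from undamaged liver and 2 from each of 3 times after PHx (48, 72 and 96 h), were analysed from the lists of open intervals the authors deposited. Per the study's methods, the authors trimmed reads, mapped them with Bowtie2 to mm10, removed duplicates and called peaks with MACS2 in the ENCODE pipeline. Each library has its own deposited list. Tool versions are not given in the sources used here. The deposited columns are a display score, which was not used, the fold enrichment (a ratio to local background), the −log10 p-value and −log10 q-value, and the summit offset, which gave motif windows. The deposited lists hold no counts, so depth is unknown and fold enrichment is less certain where an interval is weak. The name of the second 72 h list lacks a flow cell label that 7 lists share.

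Members and gene lists were chosen with earlier results of these data known. Gene bodies and starts came from GENCODE M21 and sequence from GRCm38.p6, the same coordinates as mm10. The 8 motifs were chosen after the shares of 19 motifs had been seen by region class. The GC reweighting, the mitochondrial alignment (blastn 2.17.0), the medians of enrichment by library, the example regions for motifs and the mapped stretches were also added after the data were seen. Enrichment was tested with limma 3.58.1 (trend, all libraries in 1 fit, Benjamini-Hochberg), on simulated data first, and single values by exact permutation over libraries. Named regions were the 5 strongest in all 8 libraries, the 3 strongest gained and 3 lost at each time, the 5 with the smallest limma p at 48 h, the 5 farthest from a coding start and the 5 fullest stretches. One region with a small limma p is not reported here. The stretches at Foxa2 and Onecut1 were named besides these. Alternatives were fewer or more intervals, summit windows, distances of 50 and 200 kb, other scalings, a replicate block and leaving out each library.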

Additional observations from a re-analysis of the deposited data

How the results depend on the processing

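The set itself depended on its limits: there were 2405 gene-desert regions with the 25000 strongest intervals per library, 21694 with all intervals at a q under 0.05, 32845 with all deposited intervals, and 8674 and 2532 at distances over 50 and 200 kb. Under these 5 alternatives in the same order, 68, 162, 253, 235 and 57 regions were gained and 114, 435, 437, 353 and 129 lost at 48 h, 88, 574, 664, 289 and 75 gained and 100, 159, 187, 261 and 90 lost at 72 h, and 77, 332, 429, 241 and 66 gained and 61, 195, 221, 190 and 60 lost at 96 h. As shares of gene-desert against all regions, the gains at 48 h were 2.83% against 3.64%, 0.747% against 0.967%, 0.770% against 1.06%, 2.71% against 2.66% and 2.25% against 2.66%, and the losses 4.74% against 4.17%, 2.01% against 2.19%, 1.33% against 1.70%, 4.07% against 3.50% and 5.09% against 3.50%. At 72 h the gains were 3.66% against 3.29%, 2.65% against 3.19%, 2.02% against 2.81%, 3.33% against 2.88% and 2.96% against 2.88%, and the losses 4.16% against 3.33%, 0.733% against 0.737%, 0.569% against 0.706%, 3.01% against 2.73% and 3.55% against 2.73%. At 96 h the gains were 3.20% against 2.54%, 1.53% against 1.57%, 1.31% against 1.56%, 2.78% against 2.22% and 2.61% against 2.22%, and the losses 2.54% against 2.79%, 0.899% against 1.04%, 0.673% against 0.940%, 2.19% against 2.41% and 2.37% against 2.41%. When absence was required in the full lists, 2 and 6, 2 and 2, and 1 and 2 remained. With 1 library left out, the gained counts ran from 130 to 431, 155 to 428 and 142 to 663 at 48, 72 and 96 h, and the lost counts from 228 to 572, 161 to 501 and 116 to 424. A criterion over 3 libraries is met more often by construction. The cause of the other shifts was not tested. limma called 0 to 2 gene-desert regions at 48 h and 0 to 2 at 72 h with 1 library left out, 1 at 48 h with 200 bp summits, and 0 in the other fits. Over all regions tested it called up to 7 with 1 library left out, 3 with 200 bp summits, 21, 2 and 1 at 48, 72 and 96 h with −log10 p, and 0 in the other fits. Same-numbered libraries had correlations of their deviations from −0.0563 to 0.128, so the numbers were not taken to pair libraries. With the replicate block limma called 0 regions at each time, and of 3444 gene-desert regions 164 were higher and 322 lower at 48 h at an unadjusted p under 0.05, against 2790 and 2946 of all 55124. No measure over time had an adjusted p under 0.05 in any alternative run, but 1 measure alone at the smallest unadjusted p of 0.00952 adjusts to 0.105, so this says nothing of stability. That floor was reached by the gene-desert share without the first 96-hour library, by CTCF without the first 48-hour library and by STAT with q under 0.05 (exact permutation).

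Against nearer intergenic intervals, median fold enrichment turned to −0.26 with q under 0.05 and −0.23 with all intervals, and median width to −20.9 and −24.6 bp. Width was weaker over 200 kb (10.9 bp), as were HNF1 (0.041 percentage points) and, with 25000, q under 0.05 and all intervals, repeat content (−0.197, −1.11 and −0.632). HNF4 passed the threshold with 400 bp windows (0.286), q under 0.05 (0.198), 200 bp summits (0.151) and over 50 and 200 kb (0.339 and 0.374), and ran from 0.0733 to 0.141 with 1 library left out, passing only without the second 48-hour library (exact permutation, adjusted p = 0.0489). Against intronic intervals, CTCF turned to −0.591 with 25000 intervals, −0.119 with 200 bp summits and −1.19 over 200 kb, was weaker with 400 bp windows (0.26) and all intervals (0.48), and ran from 0.22 to 0.366 with 1 library left out. The GC box turned to 0.219 over 50 kb. Width turned to −1.25 and −5.12 bp with q under 0.05 and all intervals and was weaker over 200 kb (8.5 bp). Repeat content was weaker with 25000, q under 0.05 and all intervals (−0.13, −0.627 and −0.0608), HNF4 with 25000 intervals (0.176; 0.116 to 0.202 with 1 library left out) and HNF1 over 200 kb (0.019). The other 316 values of these differences kept their direction and their side of the threshold. The CTCF share of gained minus lost regions at 48 h turned to −0.749 with q under 0.05 and −1.39 with all intervals. Lists without read counts limit what can be called: the depth of single regions is unknown.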

Other observations

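Gene-desert regions were unevenly spread over the chromosomes. Their density was 11.3 regions per Mb of gene desert on chromosome 13, 9.80 on chromosome 2 and 9.78 on chromosome 10. It was 5.51 on chromosome 14 and 2.13 on the X chromosome, where 119 regions lay in 55.9 Mb. The study's methods describe male mice, and chromosome copy number was not accounted for. On the Y chromosome 0 regions lay in 56.3 Mb, which are part of the 774 Mb of gene desert.

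Regions that overlap any annotated gene body, non-coding genes included, are left out by the gene-desert rule, so the count near non-coding starts is low by construction. Of the 5101 regions, 85 (1.67%) lay within 1 kb of an annotated start of any kind, namely 33 of lincRNAs, 31 of processed pseudogenes, 7 of miRNAs and the rest of other short or unclassified transcripts. Of these 85, 23 (27.1%) were present in all 8 libraries, against 28.0% of all gene-desert regions.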
